A study of Mus musculus with 20 samples.

Results

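The mRNA of 10 genes of the S100 and annexin families was followed in the kidneys of mice with and without Alport nephropathy: S100a4, S100a6, S100a8, S100a9, S100a10, S100a11, Anxa1, Anxa2, Anxa3 and Anxa5. They were chosen with earlier results of these data known, so their excess over all genes is no independent result. The 10 were taken by symbol from the 47069 genes of the deposited count table. All 10 were among the 17622 genes with enough counts to be tested. The 20 libraries came from kidneys of male F1 hybrid mice (129SJ x C57Bl/6J) taken at 15 weeks of age. The WT group held 5 mice, for which no treatment or injection is stated. The other 15 mice carried the Col4a3-/- deletion, which removes the α3 chain of type IV collagen from basement membranes throughout the body, so effects outside the kidney are not separated from those within it. Of these, 6 received PBS subcutaneously each week (Veh), 6 were given weekly subcutaneous doses of 50 mg/kg lademirsen from 5 weeks of age, an oligonucleotide that binds and blocks miR-21 (anti-miR-21), and 3 received ramipril, an inhibitor of angiotensin-converting enzyme, in drinking water at 11 mg/L (ACEi) from the same age and, by the study's methods, PBS injections too. The deposited library table gives the ramipril dose per body weight instead.

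S100 proteins are small calcium-binding proteins of the EF-hand type that act mostly as dimers, and annexins are proteins that bind acidic phospholipids of membranes when calcium is present. The families meet in shared complexes: S100A10 with annexin A2 at the plasma membrane, S100A11 with annexin A1, and S100A6 with several annexins. S100A8 and S100A9 form calprotectin, which neutrophils and monocytes hold in large amounts and release as a ligand of Toll-like receptor 4 and of the receptor RAGE. S100A4 marks motile mesenchymal and immune cells, and S100A6 and annexins A1, A2, A3 and A5 are found in epithelial, immune and stromal cells of injured kidneys.

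The 6 S100 members lie within chromosome 3 of GRCm38, S100a4 (chr3:90603771-90606045), S100a6 (chr3:90612882-90624181), S100a8 (chr3:90668978-90670035) and S100a9 (chr3:90692632-90695721) close together, with S100a5 and S100a7a among them, and S100a11 (chr3:93520488-93526287) and S100a10 (chr3:93555080-93564643) further along. Anxa5 lies on the same chromosome (chr3:36448923-36475894), Anxa1 on chromosome 19 (chr19:20373428-20390944), Anxa2 on chromosome 9 (chr9:69453620-69491795) and Anxa3 on chromosome 5 (chr5:96793339-96845966). All 10 are protein-coding. Promoter stretches of 150 bases are shown for S100a11, Anxa2 and Anxa1, which have AP-1 or TATA letters and rose in diseased kidneys, and for S100a8, whose mRNA did not pass the test in any comparison. They are from a table of RefSeq sequences (GRCm38.p6), in which 8 of the 10 genes were matched. Capitals mark TGANTCA, the letters bound by AP-1 factors, and TATAAA, the TATA box.
S100a11 (chr3:93520356-93520505, plus strand): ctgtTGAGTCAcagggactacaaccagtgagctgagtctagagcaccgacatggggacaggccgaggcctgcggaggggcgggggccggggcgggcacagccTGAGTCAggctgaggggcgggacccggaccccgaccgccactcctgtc
Anxa2 (chr9:69453543-69453692, plus strand): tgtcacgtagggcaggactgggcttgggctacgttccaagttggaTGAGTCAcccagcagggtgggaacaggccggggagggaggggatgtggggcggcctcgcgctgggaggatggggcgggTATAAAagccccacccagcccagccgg
Anxa1 (chr19:20390662-20390811, minus strand): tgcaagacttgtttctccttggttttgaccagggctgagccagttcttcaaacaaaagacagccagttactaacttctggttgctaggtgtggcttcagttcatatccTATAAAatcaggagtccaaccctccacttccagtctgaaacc
S100a8 (chr3:90668931-90669080, plus strand): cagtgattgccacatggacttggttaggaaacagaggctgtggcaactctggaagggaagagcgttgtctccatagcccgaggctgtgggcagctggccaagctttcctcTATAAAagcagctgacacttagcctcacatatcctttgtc
Over promoter windows of 300 bases and both strands, TGANTCA was present in 2 of the 8 genes, at 136 and 38 bases before the start site of S100a11 and at 95 bases before that of Anxa2, against 7.81% of all 32851 promoters in the table. TATAAA was present in 5 of the 8 (S100a4, S100a8, S100a9, Anxa1 and Anxa2), against 13.6% of all promoters. The motifs do not overlap.

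Lademirsen is directed against miR-21. The mature mouse miRNA is shown from RefSeq (chr11:86584120-86584141, minus strand, GRCm38.p6) with its seed, bases 2 to 8, in capitals.
miR-21a-5p: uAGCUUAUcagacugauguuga
The match to this seed, ATAAGCT, was present in the annotated 3′ untranslated region of 0 of the 10 genes. Among 15351 tested genes with an annotated region it was present in 8.79%, so 0 of 10 does not set these genes apart. Their longest annotated regions ran from 71 bases (S100a8) to 885 bases (Anxa3).

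Each library held between 28474301 and 29479629 counts on genes, so depth was nearly even. The labelled deletion could be seen in the target gene. Col4a3 stood at 193.8, 208.3, 221.5, 221.7 and 237.5 CPM (counts relative to the library size after TMM scaling, which adjusts for composition) in the WT mice. In the Veh mice it stood at 27.9 (lowest), 38.2 (median) and 46.3 (highest) CPM. It stood at 45.9 (lowest), 55.7 (median) and 74.9 (highest) CPM with anti-miR-21 and at 42.8, 46.4 and 56.2 CPM with ACEi. No deficient mouse overlapped a WT mouse, although transcript remained in all of them. The labels give kidney as the tissue while the text on extraction names adipose tissue, so tissue markers were checked. The proximal tubule genes Slc34a1, Lrp2, Cubn, Slc5a2 and Slc22a6 summed to 11688 to 14986 CPM in WT, 1291 to 3629 CPM in Veh, 6394 to 10659.7 CPM in anti-miR-21 and 6649.7 to 8710.0 CPM in ACEi mice, and the thick ascending limb genes Umod, Slc12a1, Cldn16 and Kcnj1 summed to 5586 to 6800.3 CPM in WT and 2096 to 4791 CPM in Veh mice.

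Some libraries stood apart in genes of other cell types. The adipocyte genes Adipoq, Plin1, Cidec, Lep and Cfd summed to 1.68 to 18.3 CPM in WT and 0.525 to 8.09 CPM in ACEi mice, but reached 410.1 CPM in Veh and 224.2 CPM in anti-miR-21 mice. The highest were Veh mice A1, A4 and A9 and anti-miR-21 mouse A12. The uroplakins Upk1a, Upk1b, Upk2 and Upk3a, which coat the epithelium of the renal pelvis and bladder, summed to 2.14 to 30.5 CPM in WT, 6.02 to 136.6 CPM in Veh, 1.55 to 7.57 CPM in anti-miR-21 and 1.64 to 5.15 CPM in ACEi mice. The highest were Veh mice A1 and A4 and WT mice A17 and A14. Results are given below with and without these libraries for a part of the genes and lists.

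The comparison of Veh with WT asks what the loss of Col4a3 does to these genes. Injections are stated for the Veh mice and not for the WT mice. Genotype and injection therefore cannot be told apart here or in a treatment against WT. Of the 10 members, 8 rose and 0 fell, while S100a8 and S100a9 did not pass the test (edgeR quasi-likelihood test, Benjamini-Hochberg adjusted p under 0.05). Among all 17622 genes 39.0% rose and 34.0% fell, so much of the transcriptome moved in this comparison. All 8 that rose had every Veh mouse above every WT mouse, which held for 28.8% of all genes. The median log2 fold change was 2.09 over the 10 members and 0.07 over all genes. In bulk kidney RNA, more cells of a type that holds an mRNA and more of that mRNA in each cell cannot be told apart. The count of 8 was the same within flow cell A alone, which held 13 of the 20 libraries, and with flow cell as a term.

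**Figure D1:**
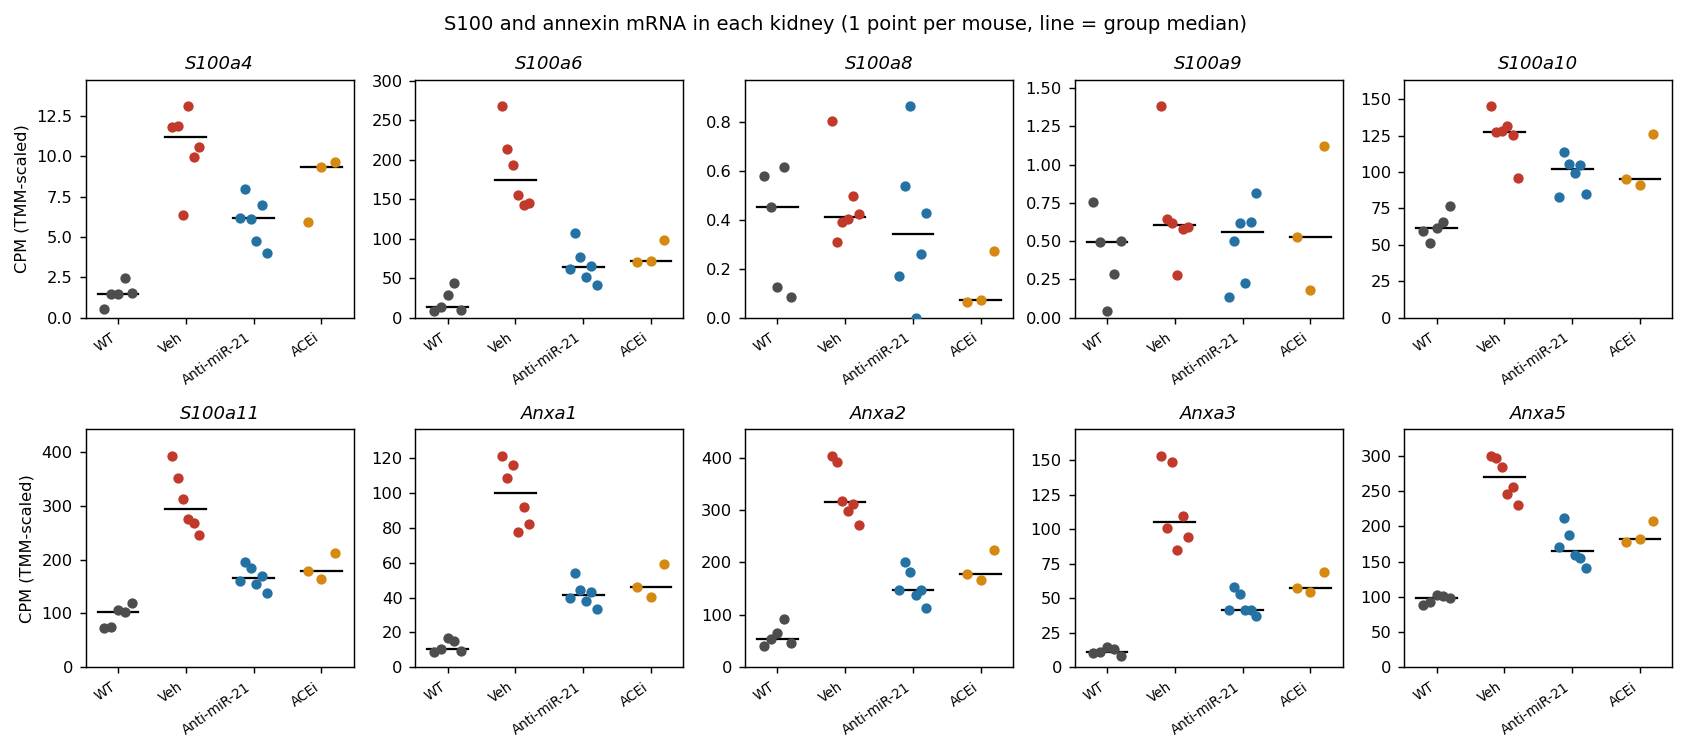
TMM-scaled CPM of the 10 genes (linear vertical axes from 0, each panel with its own range) in each mouse of the WT, Veh, anti-miR-21 and ACEi groups, with a line at the group median. In all panels but S100a8 and S100a9 the 5 WT mice lie below the 6 Veh mice, and the treated mice lie mostly between them.

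Anxa3, an annexin of neutrophil granules and epithelia, showed the steepest rise of the 10. It stood at 7.84, 10.6, 10.95, 13.1 and 14.9 CPM in the WT mice. In the Veh mice it stood at 85.3 (lowest), 105.6 (median) and 153.3 (highest) CPM. The groups were far apart, with a log2 fold change of 3.33 ± 0.19 (SE, adjusted p = 9.26e-12). S100a6, which was measured at 8.55, 9.44, 13.2, 28.5 and 43.8 CPM in WT and at 142.3 (lowest), 174.5 (median) and 268.2 (highest) CPM in Veh mice, rose by 3.17 ± 0.37 on the log2 scale (adjusted p = 1.73e-07). Among its WT mice A17 (43.8 CPM) and A14 (28.5 CPM) stood above the other 3. These are the WT mice with high uroplakins, and Veh mice A1 (268.2 CPM) and A4 (214.3 CPM) had both the highest uroplakins and the highest S100a6 of their group. Without these 4 libraries the log2 fold change of S100a6 was 3.95 and that of Anxa3 3.49, so that S100a6 had the steeper rise. Without Veh mice A1, A4 and A9 and anti-miR-21 mouse A12 the values were 2.84 for S100a6 and 3.07 for Anxa3, which then had the steeper rise. The part of urothelium in the S100a6 levels was not tested beyond this.

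**Figure D2:**
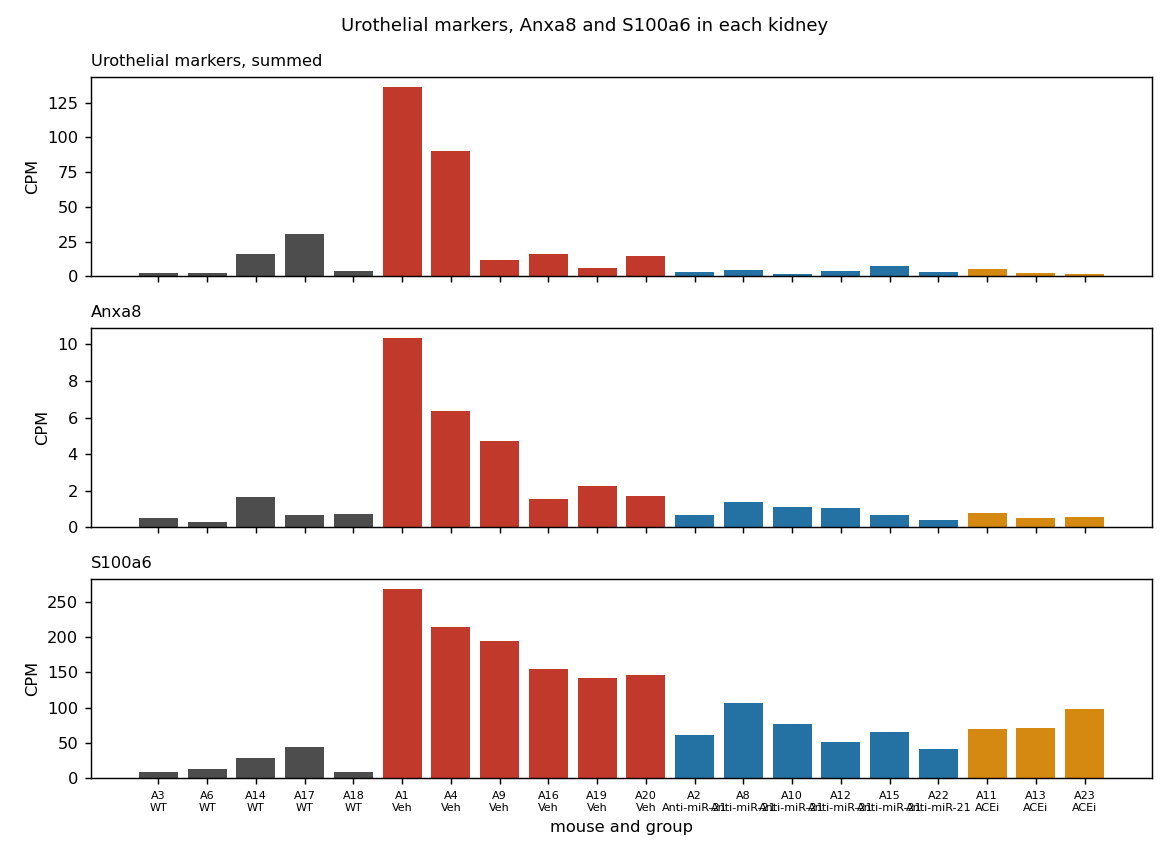
Summed CPM of 4 uroplakins (top), CPM of Anxa8 (middle) and CPM of S100a6 (bottom) in each of the 20 mice, as bars from 0 coloured by group. Veh mice A1 and A4 carry the 2 tallest bars in all 3 panels.

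Anxa1, the annexin that limits neutrophil entry through formyl peptide receptors, stood at 8.73, 9.23, 10.5, 15.3 and 17.02 CPM in WT mice. In Veh mice it stood at 78.01 (lowest), 100.4 (median) and 121.5 (highest) CPM, a 8.21-fold difference (log2 fold change 3.04 ± 0.19, SE, adjusted p = 3.10e-11). Anxa2, which binds S100A10 and anchors plasminogen activation at the cell surface, stood at 40.3, 45.6, 54.01, 66.2 and 91.4 CPM in WT mice. In Veh mice it stood at 272.3 (lowest), 314.4 (median) and 403.4 (highest) CPM, 5.58-fold higher (log2 fold change 2.48 ± 0.19, SE, adjusted p = 5.18e-10). Both annexins were therefore clear of overlap by a wide margin, the lowest Veh mouse of Anxa1 standing at 78.01 CPM and the highest WT mouse at 17.02 CPM. Anxa5, known for binding phosphatidylserine exposed on dying cells, stood in WT mice at 88.997, 93.3, 98.9, 101.4 and 103.1 CPM. In Veh mice it stood at 230.5 (lowest), 270.3 (median) and 299.95 (highest) CPM, a smaller rise of 2.77-fold with a log2 fold change of 1.47 ± 0.10 (SE, adjusted p = 6.65e-11).

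S100a4, also called fibroblast-specific protein, was scarce in WT kidneys at 0.535, 1.48, 1.48, 1.55 and 2.45 CPM. In Veh mice it stood at 6.38 (lowest), 11.2 (median) and 13.1 (highest) CPM, 7.04-fold higher (log2 fold change 2.82 ± 0.27, SE, adjusted p = 1.19e-08). S100a11, a partner of annexin A1, stood at 72.1, 74.2, 102.1, 106.8 and 120.2 CPM in WT and at 245.99 (lowest), 294.1 (median) and 392.7 (highest) CPM in Veh mice, with a log2 fold change of 1.70 ± 0.15 (SE, adjusted p = 2.20e-09). S100a10, the partner of annexin A2 and a carrier of ion channels to the membrane, rose the least of the 8. It stood at 50.9, 59.4, 61.8, 65.98 and 76.7 CPM in WT mice and at 96.1 (lowest), 127.8 (median) and 145.3 (highest) CPM in Veh mice, with a log2 fold change of 0.997 ± 0.12 (SE, adjusted p = 2.18e-07).

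The subunits of calprotectin were near the limit of what the libraries could measure. S100a8 was counted 2 to 15 times per library in WT and 11 to 29 times in Veh mice. This is 0.0839, 0.127, 0.451, 0.579 and 0.613 CPM in WT mice and 0.309 (lowest), 0.412 (median) and 0.802 (highest) CPM in Veh mice, so the groups overlapped. The log2 fold change of S100a8 was 0.34 with a 95% confidence interval of -0.90 to 1.59 (adjusted p = 0.616). S100a9 was counted 1 to 17 times per library in WT and 9 to 50 times in Veh mice, which is 0.0422, 0.286, 0.492, 0.503 and 0.757 CPM and 0.278 (lowest), 0.604 (median) and 1.38 (highest) CPM. Its log2 fold change was 0.71 with an interval of -0.42 to 1.85 (adjusted p = 0.244). A rise of S100a9 as large as that of S100a11 lies within this interval, and one as large as that of Anxa1 does not. When libraries were scaled by their totals alone, S100a9 passed the test with a log2 fold change of 1.31 (adjusted p = 0.0337), but under that scaling the median of all genes was itself 0.65. It also passed with limma on log2(FPKM + 1) (adjusted p = 0.0335) and on log2(FPKM + 0.1) (adjusted p = 0.0367), values without scaling for composition.

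Markers of the cells that hold calprotectin were read from fixed lists. Of 8 neutrophil genes, 4 had enough counts to be tested (Cxcr2, Csf3r, Mmp8 and Ltf) and all 4 rose in Veh mice. The summed level of the list was 0.839 to 4.51 CPM in WT and 15.6 to 23.003 CPM in Veh mice, most of it Csf3r, the receptor of granulocyte colony-stimulating factor. The untested genes of this list, Ly6g, Retnlg, Ngp and Camp, had at most 8 counts in any of the 20 libraries. All 7 macrophage genes also rose. Their summed level went from between 146.9 and 163.5 CPM in WT to between 967.9 and 1234 CPM in Veh mice. Csf1r held the most reads of the list on average over all 20 mice, and C1qb in the Veh mice. All 5 T cell genes rose as well, from between 0.445 and 1.43 to between 6.72 and 21.9 CPM, and all 6 fibroblast genes, from between 114.4 and 263.7 to between 1542 and 1837 CPM, led by Col1a1. All 5 genes of injured tubules rose from between 23.2 and 35.4 to between 835.9 and 1352 CPM (Havcr1, Lcn2, Vcam1, Sox9 and Krt20), and all 5 proximal tubule genes fell. Of the other lists, 4 of 5 podocyte genes and 3 of 5 endothelial genes rose (1 endothelial gene fell), while 3 of 4 thick ascending limb genes and 4 of 5 collecting duct genes fell and 1 thick ascending limb gene rose. Of the 4 uroplakins 3 rose, and of the 5 adipocyte genes 4. The part of each cell type in the rise of the S100 and annexin genes was not tested.

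The other members of both families did not move as one block. Of 11 other S100 genes 8 were tested. Of these 5 rose and 2 fell in Veh against WT, where 39.0% and 34.0% of all genes did. The median log2 fold change of the 8 was 0.96. Under library totals alone 7 rose and 1 fell. S100a2, S100a5 and S100z had at most 3 counts in any library and were not tested. S100a14, an epithelial S100 protein, stood at 0.169, 0.246, 1.02, 1.22 and 1.23 CPM in WT and at 4.48 (lowest), 6.61 (median) and 18.6 (highest) CPM in Veh mice (log2 fold change 3.48 ± 0.46, SE, adjusted p = 9.66e-07). S100a3 was counted 0 to 2 times in the WT libraries and 6 to 38 times in the Veh libraries, and it passed the test (adjusted p = 2.37e-05). The opposite direction was seen in S100g, calbindin-D9k, which carries calcium through the cells of the distal nephron. It stood at 93.3, 133.8, 143.4, 172.8 and 213.5 CPM in WT mice and at 29.8 (lowest), 38.7 (median) and 62.3 (highest) CPM in Veh mice, a fall to 0.279 of the WT level (log2 fold change -1.84 ± 0.22, SE, adjusted p = 1.94e-07). S100a1, an S100 protein best known from heart and skeletal muscle, had a log2 fold change of -0.30 ± 0.11 (adjusted p = 0.0163), with overlapping groups, and it was not called with upper-quartile scaling (-0.19, adjusted p = 0.119), where 6 of these S100 genes rose and 1 fell, and turned positive when library totals alone were used (0.28).

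Of 8 other annexins 7 were tested, of which 3 rose and 2 fell, with a median log2 fold change of 0.24. Of all genes 39.0% rose and 34.0% fell, so these counts do not set the other annexins apart. Under library totals alone 6 of the 7 rose and 1 fell. Anxa10 had at most 1 count in any library. Anxa8 stood at 0.287, 0.490, 0.654, 0.755 and 1.65 CPM in WT and at 1.57 (lowest), 3.48 (median) and 10.4 (highest) CPM in Veh mice (log2 fold change 2.55 ± 0.50, SE, adjusted p = 1.28e-04), the groups overlapping in 1 WT mouse, A14. Veh mice A1 and A4, the highest in uroplakins, also had the most Anxa8, with 10.4 and 6.35 CPM. WT mouse A17, the WT mouse with the highest uroplakins, lay below all Veh mice in Anxa8. Without A14, A17, A1 and A4 the log2 fold change of Anxa8 was 2.33, and without A1, A4, A9 and A12 it was 1.27. Anxa6, an annexin of endosomes and membranes of many cells, rose with a log2 fold change of 1.30 ± 0.08 (SE, adjusted p = 5.34e-11). Anxa13, an annexin of polarised epithelia, fell from 4.59, 5.72, 5.84, 6.21 and 6.88 CPM in WT to 0.672 (lowest), 0.961 (median) and 2.10 (highest) CPM in Veh mice (log2 fold change -2.38 ± 0.25, SE, adjusted p = 3.02e-08). Anxa11 differed by -0.30 ± 0.06 (adjusted p = 9.32e-05), which became 0.29 under library totals alone.

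**Figure D3:**
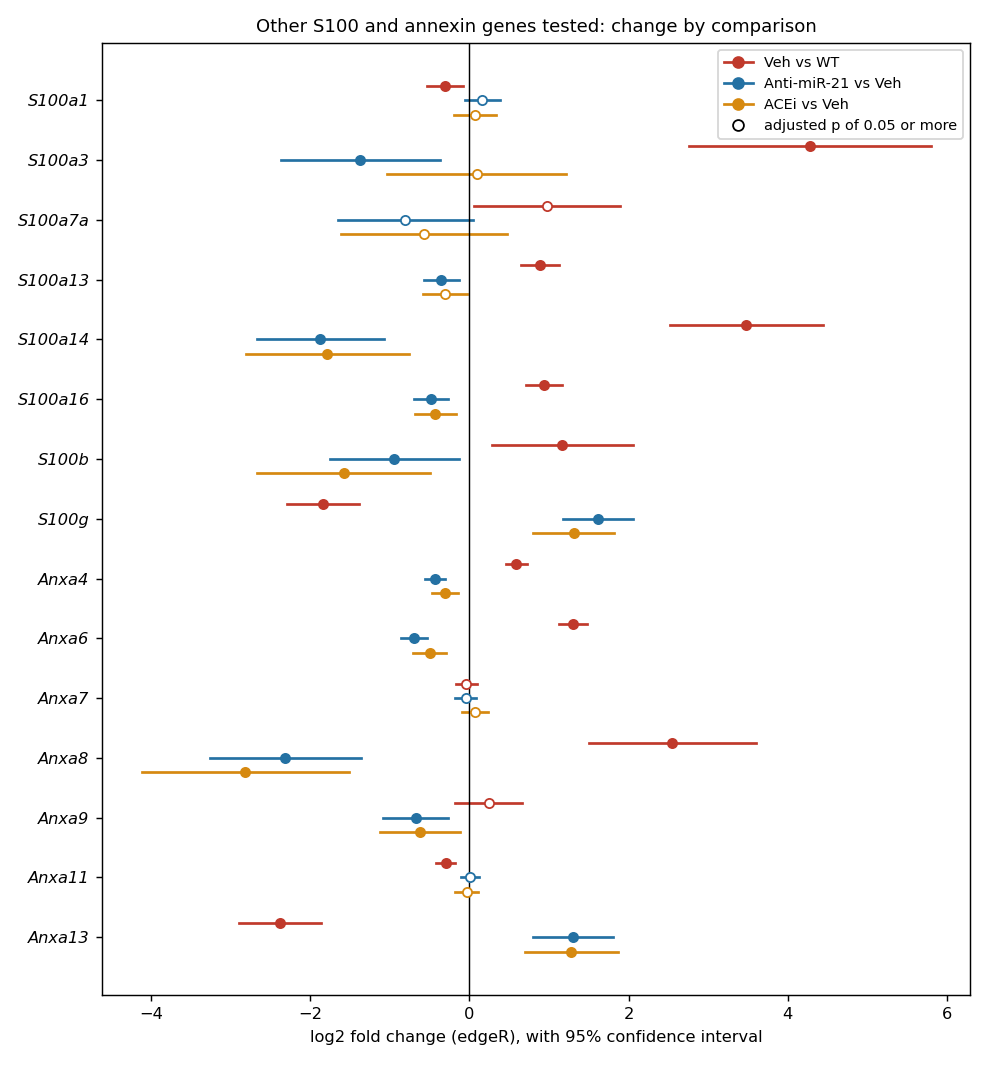
Log2 fold changes (horizontal axis) of the 8 other S100 genes and 7 other annexins that were tested, for Veh vs WT and for each treatment vs Veh, as points with 95% confidence intervals, open where the adjusted p was 0.05 or more. In Veh vs WT the points of S100a3, S100a14 and Anxa8 lie furthest to the right and those of Anxa13 and S100g furthest to the left.

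The receptors and partners of these proteins formed a list of 16 genes, all tested. In Veh against WT 13 rose and 3 fell, against 39.0% and 34.0% of all genes. The formyl peptide receptors led it: Fpr2, a receptor of annexin A1, stood at 0.0820, 0.0839, 0.127, 0.245 and 0.267 CPM in WT and at 1.33 (lowest), 2.07 (median) and 2.84 (highest) CPM in Veh mice (log2 fold change 3.62 ± 0.32, SE, adjusted p = 2.37e-09), and Fpr1 was counted 0 to 3 times in WT and 17 to 54 times in Veh libraries (adjusted p = 1.28e-05). Tlr4 and Ager, named here after their values were seen, are the main receptors of calprotectin, and both rose. Tlr4 levels went from 0.965, 1.43, 1.73, 2.01 and 2.66 CPM to 6.91 (lowest), 7.71 (median) and 9.10 (highest) CPM, and Ager, which encodes RAGE, from 1.11, 1.56, 1.68, 1.76 and 1.78 CPM to 3.33 (lowest), 5.46 (median) and 7.82 (highest) CPM (log2 fold change 2.17 ± 0.22, SE, adjusted p = 2.14e-08 for Tlr4 and 1.87 ± 0.20, adjusted p = 5.47e-08, for Ager). Cd36, a fatty acid carrier that binds the S100A8/A9 complex and is abundant in tubules, fell with a log2 fold change of -3.12 ± 0.24 (SE, adjusted p = 3.71e-10). Bsg fell too, with a log2 fold change of -0.74 ± 0.09 (SE, adjusted p = 2.30e-07).

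Anti-miR-21 against Veh asks whether inhibition of miR-21 shifts these genes. Of the 10 members 8 fell and 0 rose, and S100a8 and S100a9 did not pass the test. Among all genes 30.5% fell and 28.8% rose in this comparison, which shares its 6 Veh mice with the comparison above. In 6 of the 10 members every treated mouse was below every Veh mouse, as in 17.9% of all genes. The median log2 fold change of the 10 members was -0.85 and that of all genes -0.04. Within flow cell A alone 8 members were called as well.

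S100a6 had the largest fall with all libraries. Its anti-miR-21 mice stood at 41.2 (lowest), 63.6 (median) and 106.98 (highest) CPM, against 142.3 (lowest), 174.5 (median) and 268.2 (highest) CPM in Veh mice, with a log2 fold change of -1.47 ± 0.32 (SE, adjusted p = 5.69e-04). The highest treated mouse was below the lowest Veh mouse. Without A14, A17, A1 and A4 the log2 fold change of S100a6 was -1.23 and that of Anxa3 -1.26, the larger fall. Without Veh mice A1, A4 and A9 and anti-miR-21 mouse A12 the values were -1.05 for S100a6 (adjusted p = 0.0431), the larger fall, and -1.03 for Anxa3.

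The annexins among the members were likewise free of overlap. Anxa3 stood at 37.5 (lowest), 41.5 (median) and 58.5 (highest) CPM with anti-miR-21 (log2 fold change -1.34 ± 0.16, SE, adjusted p = 7.05e-07). Anxa1 stood at 33.2 (lowest), 41.6 (median) and 54.4 (highest) CPM (log2 fold change -1.24 ± 0.16, SE, adjusted p = 2.13e-06). Anxa2 stood at 113.4 (lowest), 147.1 (median) and 200.4 (highest) CPM (log2 fold change -1.10 ± 0.17, SE, adjusted p = 1.77e-05). Each of these annexins was at 0.395 to 0.465 of its Veh level, with every treated mouse lower than every Veh mouse. Anxa5 stood at 141.2 (lowest), 164.96 (median) and 211.8 (highest) CPM and fell less, to 0.636 of the Veh level (log2 fold change -0.65 ± 0.09, SE, adjusted p = 4.10e-06). S100a11, the partner of annexin A1, stood at 137.3 (lowest), 165.1 (median) and 196.3 (highest) CPM (log2 fold change -0.88 ± 0.13, SE, adjusted p = 1.38e-05). It too was lower in every treated mouse than in any Veh mouse. Without Veh mice A1, A4 and A9 and anti-miR-21 mouse A12 these falls were smaller, though still called. The log2 fold changes were then -0.94 for Anxa1, -0.88 for Anxa2, -0.61 for S100a11 and -0.47 for Anxa5. Without A14, A17, A1 and A4 they were -1.11, -0.94, -0.71 and -0.56.

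S100a4 and S100a10 fell with overlap. S100a4 stood at 3.99 (lowest), 6.17 (median) and 7.97 (highest) CPM (log2 fold change -0.82 ± 0.23, SE, adjusted p = 0.00418). The overlap came from Veh mouse A9, which had 6.38 CPM and lay within the range of the treated mice. S100a10 fell the least of the 8, standing at 83.2 (lowest), 102.1 (median) and 113.5 (highest) CPM (log2 fold change -0.35 ± 0.11, SE, adjusted p = 0.0104), and here Veh mouse A20 at 96.1 CPM lay within the treated range. The call of S100a10 was lost without A14, A17, A1 and A4 (log2 fold change -0.28, adjusted p = 0.0875) and without Veh mice A1, A4 and A9 and anti-miR-21 mouse A12 (log2 fold change -0.24, adjusted p = 0.206), which left fewer Veh mice. These are the libraries rich in uroplakins and in adipocyte genes. S100a8 was counted 0 to 25 times per anti-miR-21 library, with a log2 fold change of -0.32 (interval -1.48 to 0.84). S100a9 was counted 4 to 21 times, with a log2 fold change of -0.49 (interval -1.54 to 0.56). Both intervals are wide enough to hold the changes of S100a11 and Anxa5.

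**Figure D4:**
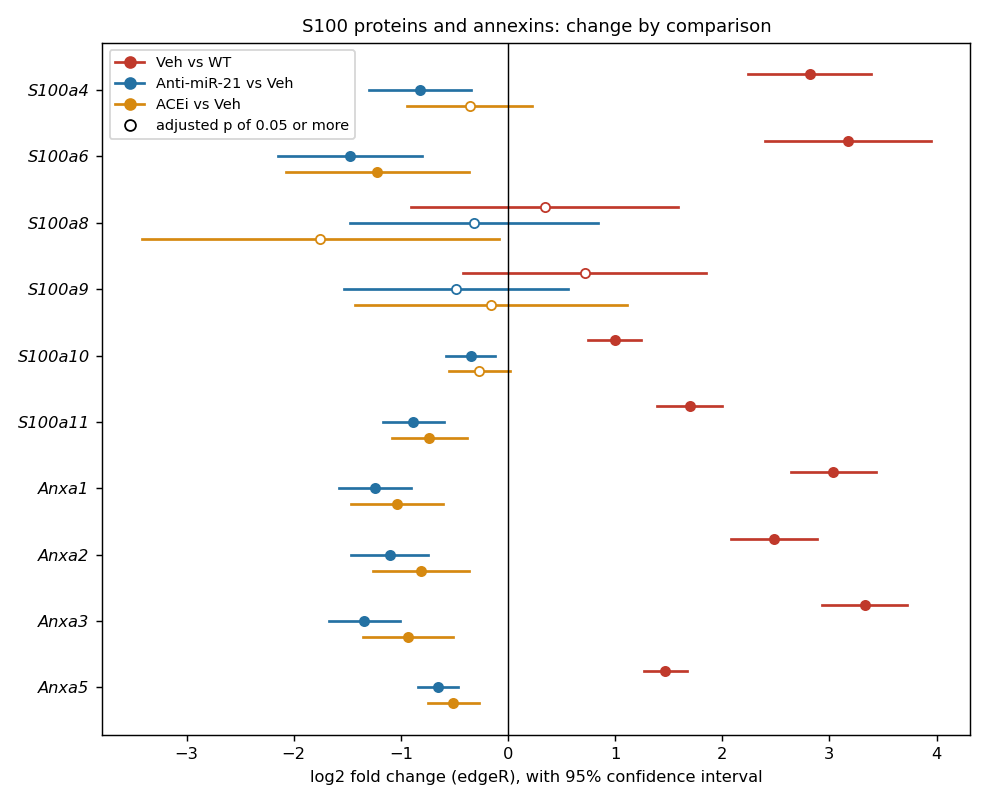
Log2 fold changes (horizontal axis) of the 10 genes for Veh vs WT and for each treatment vs Veh, as points with 95% confidence intervals, open where the adjusted p was 0.05 or more. Anxa3 has the rightmost point in Veh vs WT and S100a6 the leftmost filled point with anti-miR-21 against Veh, and the intervals of S100a8 and S100a9 are the widest.

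ACEi against Veh asks the same of ramipril, with 3 treated mice. Of the 10 members 6 fell (S100a6, S100a11, Anxa1, Anxa2, Anxa3 and Anxa5) and 0 rose, against 19.1% and 21.0% of all genes. Those 6 and S100a8 had no ACEi mouse within the range of the Veh mice, as had 18.8% of all genes in this direction. Anxa1 stood at 40.2, 46.4 and 59.3 CPM (log2 fold change -1.04 ± 0.20, SE, adjusted p = 5.43e-04). Anxa3 stood at 54.7, 57.4 and 69.5 CPM (log2 fold change -0.93 ± 0.20, SE, adjusted p = 0.00108). These annexins had the smallest adjusted p-values of the 6. S100a6 stood at 70.3, 71.8 and 98.1 CPM, the largest fall of the called members (log2 fold change -1.22 ± 0.41, SE, adjusted p = 0.0224), but it was no longer called when ACEi mouse A11 or A13 was left out (log2 fold change -1.13 and -1.14, adjusted p = 0.0862 and 0.0911). Anxa2 stood at 166.2, 177.6 and 224.1 CPM (log2 fold change -0.81 ± 0.22, SE, adjusted p = 0.00562). S100a11 stood at 164.5, 178.3 and 212.5 CPM (log2 fold change -0.73 ± 0.17, SE, adjusted p = 0.00199). Anxa5 stood at 178.2, 181.4 and 207.2 CPM (log2 fold change -0.51 ± 0.11, SE, adjusted p = 0.00138), the smallest fall of the 6. ACEi mouse A23 was the highest of the 3 treated mice in all 10 members. When Veh mice A1, A4 and A9 and anti-miR-21 mouse A12 were left out, which left 3 Veh mice, only Anxa1 and Anxa3 were called. The 4 calls lost there had log2 fold changes of -0.48 for S100a11 (adjusted p = 0.0556), -0.34 for Anxa5 (adjusted p = 0.0521), -0.61 for Anxa2 (adjusted p = 0.0830) and -0.86 for S100a6 (adjusted p = 0.181). Flow cell A held 1 ACEi library, and the comparison within it was not run because it was limited to groups with at least 2 libraries there; with flow cell as a term the count remained 6.

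The 4 members not called with ACEi were of different kinds. S100a4 stood at 5.90, 9.34 and 9.64 CPM and S100a10 at 91.4, 95.1 and 126.4 CPM, both overlapping the Veh mice. The log2 fold changes were -0.36 (interval -0.94 to 0.22, adjusted p = 0.325) and -0.27 (interval -0.55 to 0.02, adjusted p = 0.126). S100a10 was called with library totals alone (log2 fold change -0.54, adjusted p = 0.00557), with limma on log2(FPKM + 1) (-0.55, adjusted p = 0.00686) and log2(FPKM + 0.1) (-0.55, adjusted p = 0.00801), and without ACEi mouse A23 (-0.42, adjusted p = 0.0366). S100a8 was counted 2, 2 and 8 times in the ACEi libraries against 11 to 29 times in Veh. Its log2 fold change was -1.75 (interval -3.42 to -0.09, adjusted p = 0.0866), and it passed the threshold when only the ACEi and Veh mice were fitted (adjusted p = 0.0214), with library totals alone (-2.03, adjusted p = 0.0431) and with limma on log2(FPKM + 1) (adjusted p = 0.0404). S100a9 stood at 0.179, 0.525 and 1.12 CPM, a wide spread for 3 mice, with a log2 fold change of -0.16 (adjusted p = 0.856).

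The treatments were also compared directly. Between anti-miR-21 and ACEi mice 0 of the 10 members differed by edgeR's test, and 0 by DESeq2, in a comparison where 0.584% of all genes did. At an unadjusted p under 0.05 there was 1, Anxa3 (unadjusted p = 0.0445, adjusted p = 0.331). Among all 17622 genes 2562 passed this looser threshold, so 1 of 10 members does not set them apart. Anxa3 was lower with anti-miR-21, with a log2 fold change of -0.41 and an interval of -0.81 to -0.01. Log2 fold changes of the other 7 members that moved lay between -0.46 (S100a4, interval -1.04 to 0.11) and -0.08 (S100a10, interval -0.36 to 0.20). The widest of these 7 intervals was that of S100a6, from -1.06 to 0.55, and intervals of this width do not show that the treatments acted alike.

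The treated mice were also set against WT, to ask how far the members were from the healthy level. There, 8 members were higher with anti-miR-21, against 23.9% of all genes, and 7 of them without overlap, against 14.7%. The exception was S100a6, where anti-miR-21 mouse A22 (41.2 CPM) lay below WT mouse A17 (43.8 CPM), one of the uroplakin-rich libraries. Without A14, A17, A1 and A4 the log2 fold change of S100a6 was 2.71, against 1.70 with all libraries, and its groups did not overlap. A17 and A14 had the most S100a6 of the WT mice, so a larger difference without overlap followed from leaving them out. With ACEi 8 members were higher than in WT, against 25.2% of all genes, all 8 without overlap, against 23.9%. For Anxa3 the log2 fold change against WT was 3.33 in Veh, 1.99 in anti-miR-21 and 2.40 in ACEi mice. For S100a4 these values were 2.82, 1.995 and 2.46, and for Anxa5 1.47, 0.82 and 0.96. The 3 values of each gene share the same 5 WT mice.

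The rest of the families was counted under treatment as well. For these counts, 30.5% of all genes fell and 28.8% rose with anti-miR-21, and 19.1% fell and 21.0% rose with ACEi. Of the 8 other S100 genes 5 fell and 1 rose with anti-miR-21, and 3 fell and 1 rose with ACEi. The gene that rose was S100g in both, which stood at 88.8 (lowest), 131.4 (median) and 177.9 (highest) CPM with anti-miR-21 and at 89.997, 105.3 and 119.01 CPM with ACEi (log2 fold change 1.62 ± 0.21, SE, adjusted p = 1.98e-06 and a log2 fold change of 1.31 ± 0.24 (SE, adjusted p = 3.20e-04)). S100a14 fell in both, with log2 fold changes of -1.87 and -1.78. Without the 4 libraries rich in uroplakins the falls among the other S100 genes numbered 2 with anti-miR-21 and 1 with ACEi, and without the 4 rich in adipocyte genes 1 and 0. In both cases fewer Veh mice were left. Of the 7 other annexins 4 fell and 1 rose with each treatment, the riser being Anxa13 (1.30 and 1.28 on the log2 scale). Without Veh mice A1, A4 and A9 and anti-miR-21 mouse A12 the falls numbered 3 with anti-miR-21 and 2 with ACEi. Anxa8 had the largest falls, with -2.31 and -2.81, which became -1.49 and -1.996 without the uroplakin-rich libraries. Of the 16 receptors and partners 8 fell and 3 rose with anti-miR-21, and 7 fell and 3 rose with ACEi. Under library totals alone these counts were 13 and 1, and 10 and 1, and without Veh mice A1, A4 and A9 and anti-miR-21 mouse A12 they were 7 and 3, and 4 and 3. Those that rose with TMM scaling were Cd36, Bsg and Cacybp, a partner of S100A6 in protein degradation that is named here after its values were seen. Fpr1 and Fpr2 did not pass the test with either treatment, the log2 fold changes of Fpr2 being -0.28 (interval -0.75 to 0.19) and 0.04 (interval -0.53 to 0.62).

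Cell type markers moved under treatment as well. Of the 4 neutrophil genes tested, 2 were lower with anti-miR-21 than in Veh (Csf3r and Ltf) and 1 with ACEi (Mmp8), and the list summed to 7.01 to 13.9 CPM with anti-miR-21 and 9.59 to 13.7 CPM with ACEi, below all Veh mice. The macrophage genes, all 7 lower with either treatment than in Veh, summed to 407.4 to 636.9 CPM with anti-miR-21 and 529.03 to 627.97 CPM with ACEi. The fibroblast genes summed to 435.6 to 840.96 CPM with anti-miR-21 and 819.99 to 927.4 CPM with ACEi, with 5 of 6 and 2 of 6 lower than in Veh. The genes of injured tubules summed to 267.6 to 555.4 CPM with anti-miR-21 and 535.98 to 624.2 CPM with ACEi, with 4 of 5 and 1 of 5 lower. All 5 T cell genes were lower with anti-miR-21 and 0 of 5 with ACEi, and none of the 5 was called between the treatments. All 4 uroplakins were lower with each treatment, and of the 5 adipocyte genes 0 with anti-miR-21 and 4 with ACEi, where again none was called between the treatments. With anti-miR-21, 1 endothelial, 3 podocyte, 2 collecting duct and 3 thick ascending limb genes were higher than in Veh, and 1 podocyte and 1 thick ascending limb gene lower. With ACEi, 1, 2, 2 and 1 genes of these lists were higher and 0 lower. All 5 proximal tubule genes were higher with each treatment. The part of these cell types in the falls of the members was not tested.

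Annexin A2 and S100A10 join in equal numbers, so the ratio of their mRNAs was taken within each mouse, where it does not depend on the scaling of libraries. The log2 ratio of Anxa2 to S100a10 counts was -0.75, -0.56, 0.08, 0.10 and 0.47 in WT mice. It was 1.18 (lowest), 1.40 (median) and 1.62 (highest) in Veh mice, clear of all WT mice (difference of means 1.53, exact two-sided permutation p = 0.00433, adjusted p = 0.0173). It was 0.42 (lowest), 0.63 (median) and 0.83 (highest) with anti-miR-21 (difference of means -0.77, exact two-sided permutation p = 0.00216, adjusted p = 0.0173) and 0.83, 0.86 and 0.90 with ACEi (difference of means -0.54, exact two-sided permutation p = 0.0238, adjusted p = 0.0476), below all Veh mice in both. Within flow cell A, with fewer mice, the differences were 1.55 for Veh against WT (exact permutation, adjusted p = 0.114) and -0.82 for anti-miR-21 against Veh (adjusted p = 0.0635, exact permutation), numbers of mice at which the smallest p possible did not pass after adjustment. With 1 Veh or ACEi mouse fewer, the smallest p that the permutations allow no longer passed after adjustment, so leaving out a mouse says nothing about how stable the call with ACEi is. With an offset of 2 counts in place of 0.5 that call did not pass (difference -0.54, adjusted p = 0.0635, exact permutation). Between the treatments it did not pass the threshold after adjustment (difference of means -0.23, exact two-sided permutation p = 0.0476, adjusted p = 0.0762). The 8 tests of both ratios were adjusted together, and with 6 mice against 3 the permutation p cannot go below 0.0238.

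The subunits of calprotectin also bind in equal numbers. The log2 ratio of S100a8 to S100a9 counts was -2.32, -0.37, -0.12, 1.05 and 1.22 in WT mice and -1.03 (lowest), -0.55 (median) and 0.51 (highest) in Veh mice (difference of means -0.33, exact two-sided permutation p = 0.619, adjusted p = 0.686). It was -3.70 (lowest), -0.41 (median) and 0.46 (highest) with anti-miR-21 (difference of means -0.39, exact two-sided permutation p = 0.686, adjusted p = 0.686) and -2.72, -1.98 and -1.14 with ACEi (difference of means -1.51, exact two-sided permutation p = 0.0238, adjusted p = 0.0476). The ACEi mice lay below the Veh mice, but the libraries held 2, 2 and 8 counts of S100a8, and with an offset of 2 counts in place of 0.5 the adjusted p was 0.0762. Here too the smallest p possible with 1 Veh or ACEi mouse fewer did not pass after adjustment. Between the treatments the ratio did not pass the test (difference of means 1.12, exact two-sided permutation p = 0.310, adjusted p = 0.413).

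Levels can be compared between genes only per length, for which the deposited FPKM (fragments relative to transcript length and library size) served, within a group. In WT mice the order of the members was S100a11 (155.98 ± 35.8 FPKM, mean ± SD), S100a10 (79.7 ± 12.2 FPKM), Anxa5 (46.5 ± 3.94 FPKM), Anxa2 (35.6 ± 13.1 FPKM), S100a6 (23.8 ± 17.9 FPKM), Anxa1 (7.14 ± 2.30 FPKM), Anxa3 (5.81 ± 1.51 FPKM), S100a4 (2.51 ± 1.20 FPKM), S100a8 (0.747 ± 0.493 FPKM) and S100a9 (0.654 ± 0.403 FPKM). The ranges of S100a11 and S100a10 and of S100a10 and Anxa5 did not overlap, while every later neighbour in this order overlapped with the next. In Veh mice S100a11 still led at 761.8 ± 146.2 FPKM, and S100a6 had moved up to the next place at 321.5 ± 87.9 FPKM. Anxa2 followed at 299.4 ± 51.3 FPKM, with a range that overlapped those of S100a6 and of S100a10 (240.3 ± 30.7 FPKM). Anxa1 and Anxa3 could not be ordered in Veh mice, at 88.5 ± 17.9 and 88.01 ± 23.1 FPKM, each being higher in 3 of 6 mice. Anxa5 (194.7 ± 24.2 FPKM) overlapped S100a10 but not Anxa1, and S100a4 (26.5 ± 5.32 FPKM) stood clear of both its neighbours, the next being S100a9 at 1.64 ± 0.897 and S100a8 at 1.38 ± 0.604 FPKM. With anti-miR-21 the order began with S100a11 (326.4 ± 59.9 FPKM), S100a10 (148.8 ± 23.6 FPKM), Anxa2 (110.4 ± 28.7 FPKM), Anxa5 (97.9 ± 20.5 FPKM) and S100a6 (91.8 ± 35.97 FPKM). Anxa1 (29.6 ± 6.49 FPKM), Anxa3 (27.7 ± 6.58 FPKM) and S100a4 (11.9 ± 3.45 FPKM) followed. With ACEi it began with S100a11 (377.8 ± 56.2 FPKM), S100a10 (164.8 ± 32.1 FPKM), Anxa2 (140.4 ± 24.2 FPKM), S100a6 (113.4 ± 22.3 FPKM) and Anxa5 (112.6 ± 10.2 FPKM). There Anxa3 (38.5 ± 5.43 FPKM), Anxa1 (35.4 ± 7.56 FPKM) and S100a4 (17.01 ± 3.91 FPKM) came next, and S100a8 and S100a9 were the lowest members in both treated groups. In both groups S100a11 stood clear of S100a10. The next 4 members overlapped from one to the next and stood clear of Anxa1 and Anxa3. Those 2 annexins overlapped each other, and S100a4 stood clear of the members next to it. FPKM were made on another gene model, without scaling for composition, and the authors marked the FPKM entries of Anxa1, Anxa2 and Anxa5 as confounded with other genes. S100a4 overlaps Gm42674, Anxa3 overlaps Gm42603, Anxa2 overlaps Mir3109 and Gm16144, Anxa5 overlaps Mir7009 and Anxa1 overlaps 1500015L24Rik, and as strand use in counting is not stated, counts of these members are uncertain to that extent. The same holds for S100a3, S100g, Anxa8 and Anxa11, and for Fpr2, which overlaps Fpr3.

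**Figure D5:**
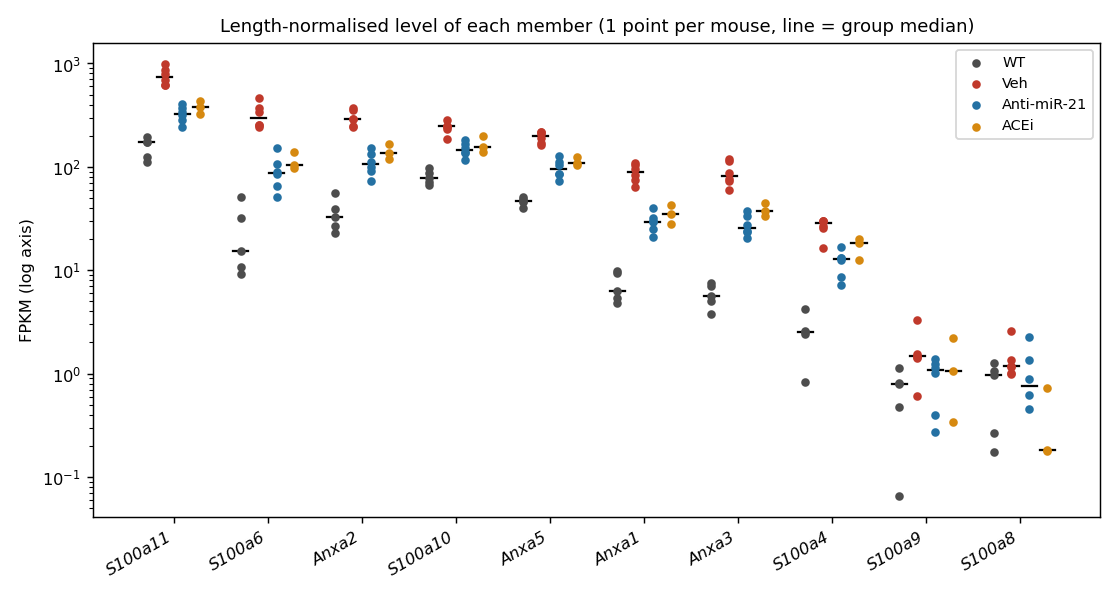
Deposited FPKM (log axis) of the 10 genes in each mouse, ordered by the mean in Veh mice, with a line at the group median; the S100a8 value of anti-miR-21 mouse A12 is 0 and cannot be drawn on this axis. By group mean S100a11 is the highest of the 10 in every group and S100a8 and S100a9 are the lowest, with S100a4 overlapping them in WT.

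The genes most like each member across the 20 mice were found by the root mean square difference of log2 CPM centred on each gene's mean, over 12573 or 12574 other protein-coding genes whose mean log2 CPM was 1 or more. Small differences mean like profiles, and all profiles share the differences between groups. The measure shrinks with the spread of the gene itself, from an SD of 0.43 log2 CPM over the mice in S100a10 to 1.42 in S100a6, so it ranks neighbours within a member and not members among themselves. Anxa5 was nearest to Rhog (0.0912) and Tnfrsf1a (0.0944), in log2 units. Anxa2 was nearest to Tmsb4x (0.115) and Apobec3 (0.168), and S100a10 to S100a13 (0.120) and Cst3 (0.143), the former being another S100 gene. S100a11 was nearest to Unc119 (0.131) and Eif4ebp1 (0.160), Anxa1 to Gpx7 (0.172) and Myof (0.176) and Anxa3 to Sparc (0.185) and Tnfaip8l2 (0.186). S100a6 was nearest to Vtcn1 (0.238) and Wnt10a (0.306) and S100a4 to Psd4 (0.271) and Nfkbid (0.347). S100a8 and S100a9, whose counts are low and noisy, were nearest to Trpm6 (0.786) for S100a8 and Nuak2 (0.689) and Snrpg (0.689) for S100a9.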

How the data were processed

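Total RNA from whole kidneys was sequenced by the authors on an Illumina HiSeq instrument as paired-end reads, aligned to GRCm38 with OSA4 (version 4) and quantified in OmicSoft Studio 9.0. The authors deposited estimated counts per Ensembl gene (R83 per the submitters' notes), of which 29.1% of the positive values were not whole, and they were rounded here. The authors also deposited FPKM on a UCSC gene model, whose 3 columns that match no sample were not used. The comparisons used the counts; FPKM served for the order of genes within a group. Each library had between 70004591 and 73294858 alignments and was run on flow cell A (13 libraries) or B (7).

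Genes were kept by filterByExpr (minimum count 10, minimum total 15), scaled by TMM and fitted in 1 model over the 4 groups with edgeR 4.0.16 (quasi-likelihood, R 4.3.3), with Benjamini-Hochberg adjustment over all 17622 genes and a threshold of 0.05. Intervals are at 95%. The p-values measure the spread between the mice as labelled. Ratios used log2 counts with an offset of 0.5 and exact permutation tests (scipy 1.17.1). The scripts were tested on simulated data. Alternatives were DESeq2 1.42.0, limma 3.58.1 on log2(FPKM + pseudocount), other scalings and filters, flow cell as a term and mice left out; 2 sets of libraries left out were added after seeing the data.

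The members and lists were chosen with earlier results of these data known. The named genes were the 10 members, the 2 highest and 2 lowest of each list of relatives in Veh against WT, the marker genes, Col4a3, and the 2 genes closest to each member. Tlr4, Ager and Cacybp were named outside this rule. For S100a8 only 1 of these is given, and the other is not reported here. Promoters and the miRNA came from RefSeq tables (GRCm38.p6) and untranslated regions from GENCODE vM21.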

Additional observations from a re-analysis of the deposited data

Results flagged for a closer look

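The 10 genes and both ratios were checked for a lone value far from the rest in the groups of 5 WT, 6 Veh and 6 anti-miR-21 mice, 36 sets of values, of which 1 stood out, where chance gives about 1 in 20. The 3 ACEi mice are too few for this check. S100a9 stood at 1.38 CPM in Veh mouse A1, above the other 5 Veh mice by 0.666 of the whole range of the group. Mouse A1 was also the Veh mouse with the highest summed uroplakin and adipocyte genes, and the part of these in its S100a9 level was not tested.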

How the results depend on the processing

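The counts of members called stayed within 1.5 times their value in 138 of 139 recomputed values. The exception was ACEi against Veh without Veh mice A1, A4 and A9 and anti-miR-21 mouse A12, with 2 members called, where fewer mice were compared. Leaving out 1 mouse at a time gave 8 called members in Veh against WT, 8 in anti-miR-21 against Veh, 5 to 7 in ACEi against Veh, 0 between the treatments, and 8 in each comparison of a treatment with WT. The medians of all genes shifted with scaling: to 0.65, -0.38 and -0.32 for Veh against WT, anti-miR-21 against Veh and ACEi against Veh with library totals alone, and to 0.18, -0.12 and -0.12 with upper-quartile scaling. Of the genes called in these comparisons 53.38%, 48.59% and 52.36% were higher with TMM, against 81.24%, 19.96% and 20.51% with library totals alone and 59.83%, 40.48% and 41.5% with upper-quartile scaling. The calls of the ratios depended on the number of mice. With 1 Veh or ACEi mouse fewer, the smallest p the permutations allow did not pass in ACEi against Veh. With an offset of 2 counts in ACEi against Veh the S100a8 to S100a9 ratio differed by -1.18 (adjusted p = 0.0762, exact permutation) and the Anxa2 to S100a10 ratio by -0.54 (adjusted p = 0.0635, exact permutation). Within flow cell A the Anxa2 to S100a10 ratio differed by 1.55 in Veh against WT and by -0.82 in anti-miR-21 against Veh, neither past the threshold. With 1 mouse left out the Anxa2 to S100a10 differences ranged from 1.38 to 1.68, from -0.81 to -0.72 and, in ACEi against Veh, from -0.58 to -0.49. For S100a8 to S100a9 they ranged from -0.88 to 0.01 (0.0053 without WT mouse A14), from -0.65 to 0.18 (0.18 without anti-miR-21 mouse A12) and from -1.91 to -1.12.

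Changes of sign occurred in S100a8, S100a9 and S100a10 where they were not called, and the cause was not tested. S100a9 in Veh against WT turned to -0.16 without the 4 uroplakin-rich libraries. Without the 4 adipocyte-rich libraries S100a8 and S100a9 in anti-miR-21 against Veh turned to 0.0565 and 0.167. S100a9 in ACEi against Veh turned to 0.20 without Veh mouse A1, 0.27 without ACEi mouse A13, and 0.25 and 0.36 without those sets of libraries. Between the treatments S100a9 turned to 0.45 and S100a10 to 0.0823 without ACEi mouse A23. S100a8 in anti-miR-21 against WT turned to -0.000998 with DESeq2, -0.43 within flow cell A, -0.0132 with limma on log2(FPKM/TMM + 1), -0.19 and -0.23 without WT mouse A14 or A18, and -0.10, -0.40 and -0.0114 without anti-miR-21 mouse A8, A10 or A22. S100a9 in anti-miR-21 against WT turned to -0.0642 without WT mouse A14 and -0.24 without the uroplakin-rich libraries, and in ACEi against WT to -0.22 without ACEi mouse A23. Over all mice left out singly, S100a9 ranged from -0.93 to 0.27 in ACEi against Veh, from -0.76 to 0.45 between the treatments, from -0.0642 to 0.55 in anti-miR-21 against WT and from -0.22 to 0.99 in ACEi against WT. S100a10 ranged from -0.17 to 0.0823 between the treatments, and S100a8 from -0.40 to 0.28 in anti-miR-21 against WT. With at most 50 counts per library, depth limits S100a8 and S100a9. No paired analysis was possible because the mouse names pair no mice across groups.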
